A study of Sus scrofa with 8 samples.

Results

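The enzymes of glycolysis and of pyruvate use were followed in the lung of Tibetan and Duroc pigs kept at high or low altitude. The 10 enzymes were HK1, HK2, GPI, TPI1, GAPDH, PGK1, ENO3, LDHA, LDHB and PDHA1, and their probes were all those carrying 1 of these gene symbols and bright enough to clear the scanner's background test on 1 array or more. This rule found 13 probes of 9 enzymes among the 34401 probes of the series that passed the same background criterion and its 43603 probes in all, and each of the 13 was well above background on all 8 arrays. The series had a gene symbol for 3834 genes at probes passing this criterion. A GAPDH probe was absent under the rule, and GAPDH was not analysed here. Named through the RefSeq accession in the scanner files were 10 probes, those of HK2, GPI, TPI1, PGK1, ENO3, LDHA and LDHB. The other 3 probes, 1 of HK1 and 2 of PDHA1, were named only by the study's own gene tables. Those tables had been ordered or limited by tests of breed and of its interaction with altitude on these same arrays, so HK1 and PDHA1 are described with no test and are not counted below.

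Lung RNA of 8 female pigs, 6 months old, was hybridised to 1-colour Agilent porcine arrays, 1 pig per array and 2 arrays per group. TH were Tibetan pigs raised at 3500 m where the breed is native, and TL were Tibetan pigs moved at the age of 1 month to 40 m. DL were Duroc pigs raised at 40 m where that herd was kept, and DH were Duroc pigs moved at the age of 1 month to 3500 m. Altitude differences within a breed were therefore also differences between pigs that were moved and pigs that were not, and the 2 sites differed in more than altitude; altitude, move and site cannot be told apart within a breed. The pigs of a group were selected at random from 8. Levels are the deposited log2 values, and differences are differences of log2 values with their standard error (SE) from limma, fitted over all 34401 probes and 8 arrays. A probe was called where the Benjamini-Hochberg adjusted p (FDR) was below 0.0001, the study's threshold.

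Glycolysis splits glucose into pyruvate in the cytosol and yields ATP without oxygen. Hexokinases (HK1, HK2) trap glucose as glucose 6-phosphate, glucose-6-phosphate isomerase (GPI) turns it into fructose 6-phosphate, and triosephosphate isomerase (TPI1) interconverts the triose phosphates that follow. Phosphoglycerate kinase (PGK1) makes ATP, and enolase, of which ENO3 is the muscle form, makes phosphoenolpyruvate. Lactate dehydrogenase, built of LDHA and LDHB subunits, interconverts pyruvate and lactate, while pyruvate dehydrogenase, whose E1 alpha subunit is PDHA1, passes pyruvate to the mitochondrial citrate cycle. Many genes of this route are known targets of the hypoxia-inducible factor HIF-1.

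The TL arrays stood apart from the others. They had 31641 and 31722 probes well above background against 26465 to 29316 on the other 6 arrays. Pearson's r across probes was 0.9177 to 0.9406 with TL against 0.9608 to 0.9674 between other groups and 0.9807 to 0.9938 within groups. The upper part of the signal spanned less on TL, where the 95th percentile of log2 signal lay 3.31 and 3.32 above the 75th, against 3.96 to 4.06 elsewhere. The middle of the signal was higher there. The median processed signal was 260 and 268 on TL against 139 to 160 elsewhere, and the 75th percentile was 2265 and 2343 against 1556 to 1681. TL was the group farthest from the other means for 52.7% of all tested probes and for 5 of the 10 counted enzyme probes. One slide held TH and DL and the other DH and TL, so slide and the breed-by-altitude interaction cannot be told apart, and no slide gave a within-breed altitude value. The interaction also sets unmoved pigs (TH and DL) against moved pigs (DH and TL), so it cannot be told apart from the move either. The tissue label was borne out by high levels of lung genes: surfactant protein SFTPC lay between 18.57 and 18.97 in the group means, and AGER, a marker of alveolar type I cells, between 12.23 and 12.77. Cardiac troponin TNNI3 was at 14.03 in TL against 11.45 to 11.66 in the other groups at its A_72_P146876 probe. Of 6 cardiac genes listed, 2 had a named probe, and NPPA was not well above background on any array. All 4 TNNI3 probes were called higher in TL than in TH. The part of heart muscle in the TL values was not tested.

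In Tibetan pigs all 10 counted probes had higher levels in TH than in TL, as had 55.1% of all tested probes and 69.2% of those named through an accession. Of the 10 probes, 3 were called higher, the GPI probe and both TPI1 probes. Of all tested probes 20.5% were called higher in TH, and of the 2474 tested probes named through an accession 33.3%, so that 3 of 10 was near the background. In Duroc pigs 2 of 10 probes were called higher in DH than in DL, TPI1 at its brighter probe and ENO3, where 5.83% of all tested probes and 6.43% of the accession-named probes were called higher. Averaged over both breeds (altitude effect), 4 of 10 probes were called higher at high altitude, those of GPI, TPI1 (both) and ENO3, against 14% of all tested probes and 26.2% of the accession-named probes. The median difference of the 10 probes was 0.41 for TH minus TL, 0.10 for DH minus DL and 0.20 for the altitude effect. Over all tested probes these medians were 0.11, -0.01 and 0.01, and over the accession-named probes 0.38, -0.01 and 0.18, so that the medians of the enzymes in Tibetan pigs and for altitude lay close to those of the named probes as a class. Leaving out any single array leaves 1 array in a group. Calls were then lost in each of these contrasts, among the enzyme probes and among all tested probes alike. In bulk lung, fewer cells of a type and less RNA per cell cannot be told apart.

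**Figure D1:**
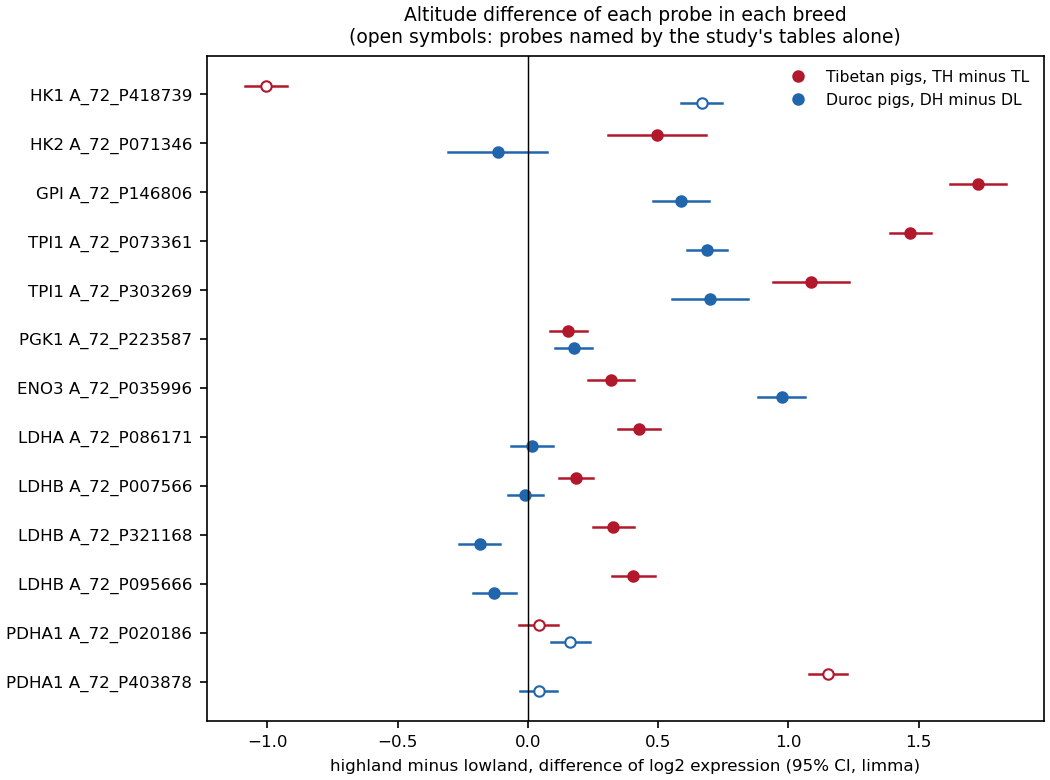
Highland minus lowland difference of log2 expression on the x axis for each of the 13 probes, in Tibetan pigs (red, TH minus TL) and Duroc pigs (blue, DH minus DL), with bars for the 95% confidence interval from limma and open symbols for probes not counted. GPI and TPI1 lie to the right of 0 in both breeds and farther right in Tibetan pigs, ENO3 lies farther right in Duroc pigs (0.97 against 0.32), and HK1 has opposite signs in the 2 breeds.

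Read array by array, the order of the groups differed between steps of the pathway. Both highland arrays lay above both lowland arrays within each breed at 5 of 10 probes, those of GPI, TPI1 (both), PGK1 and ENO3, against 18% of all tested probes and 31% of accession-named probes. All 4 highland arrays lay above all 4 lowland arrays at 4 of 10 probes, those of GPI, TPI1 (both) and ENO3, where 11.9% of all tested probes and 22.4% of accession-named probes did so. TH lay above TL without overlap at 10 of 10 probes (49.2% of all tested probes, 64.5% of accession-named probes), and DH above DL at 5 of 10 (38.8% and 41.7%).

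**Figure D2:**
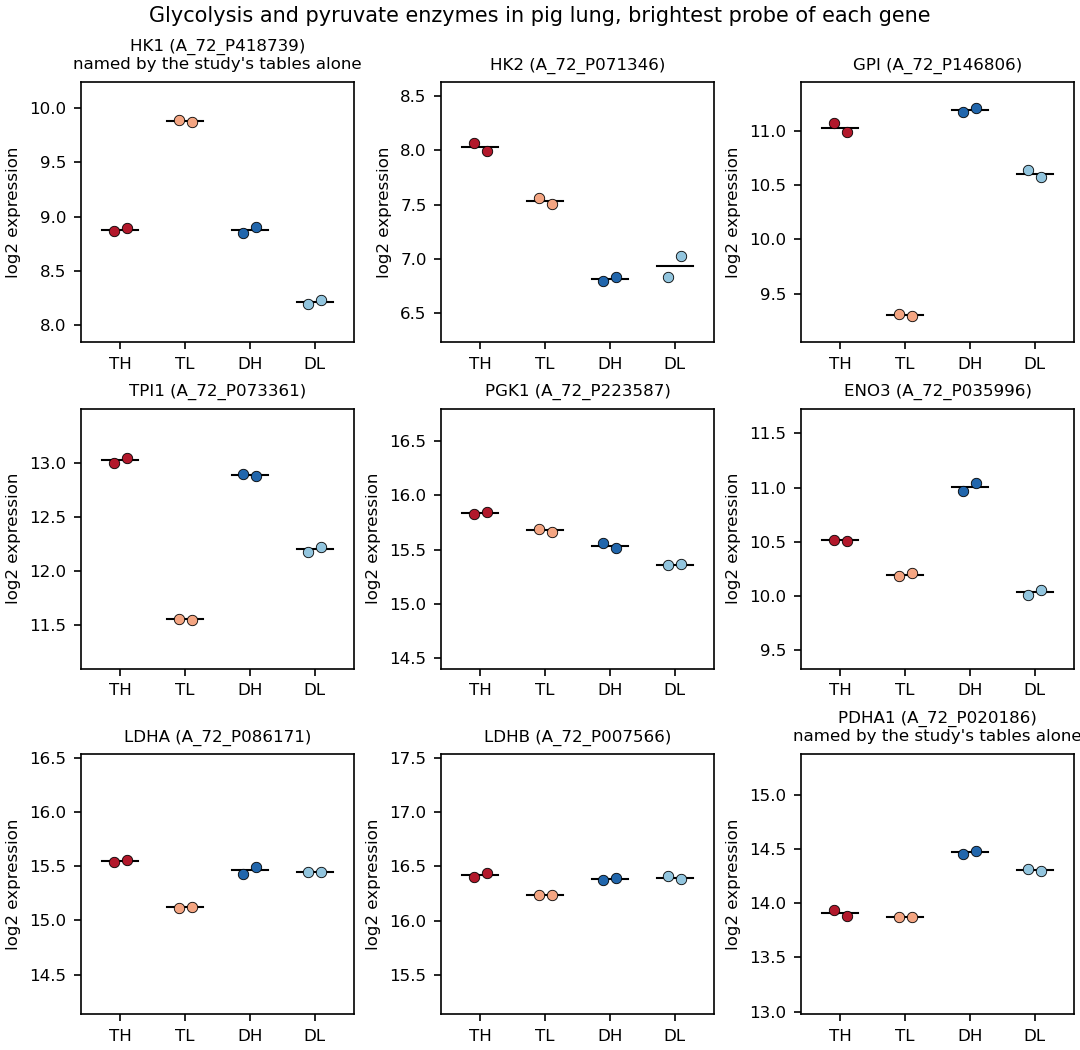
Log2 expression (y axis) on each of the 8 arrays for the brightest probe of each of the 9 enzymes, with points for single arrays and a bar for the group mean. Every y axis spans the same length in log2 units. GPI and TPI1 are lowest in TL and next lowest in DL, HK2 separates by breed, and LDHA and LDHB are flat apart from lower values in TL.

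HK2 was separated by breed. HK2, the inducible hexokinase, was at 8.07 and 7.99 in TH against 7.56 and 7.51 in TL, and 6.80 and 6.83 in DH against 6.83 and 7.03 in DL. All Tibetan arrays lay above all Duroc arrays, TH lay above TL, and the arrays of DH and DL were neighbours whose means did not differ beyond their spread. The breed effect of HK2, Tibetan minus Duroc, was 0.91 (SE 0.05, n = 8 arrays, limma adjusted p = 5.47e-05, called), or 1.88-fold, where 12.8% of all tested probes were called higher in Tibetan pigs. Its size depended on the background correction, being 0.26 with normexp and an offset of 50, and its call was lost in 10 of 19 alternatives, among them each fit without 1 array (limma adjusted p from 1.04e-04 to 6.51e-04). TH minus TL was 0.50 (SE 0.07, adjusted p = 0.00194, not called), and DH minus DL was -0.12 with a 95% confidence interval of -0.31 to 0.07. The difference between the breeds' altitude contrasts was 0.61 (limma adjusted p = 0.00362, not called).

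Among 4972 other probes with a gene symbol and well above background on all arrays, the patterns most like HK2 over the 8 arrays were those of CLCA1 (Pearson r = 0.9936) and AGR2 (r = 0.9933), both known as genes of mucus-secreting epithelium. These probes included some named only by the study's gene tables, AGR2 among them, which had been ordered or limited by tests on these same arrays. The values of r here and for the other enzymes are therefore descriptive, and likeness was not tested. BPIFA1, an airway secretory marker, had group means of 14.28 in TH against 15.70 in TL, and 10.49 in DH against 8.78 in DL at its brighter probe, so that it too was higher in Tibetan pigs. Within each breed its sign was opposite to that of HK2. TH minus TL was -1.42 for BPIFA1 against 0.50 for HK2, and DH minus DL was 1.71 against -0.12. Of the 6 airway genes listed BPIFA1 was the gene with a named probe, and the summed level of its 2 probes was 15.04 to 15.06 in TH against 16.36 to 16.37 in TL, and 11.20 to 11.21 in DH against 9.44 to 9.52 in DL. The part of airway tissue in the HK2 values was not tested.

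HK1, the housekeeping hexokinase, read through the A_72_P418739 probe that the study's tables name, was at 8.87 and 8.89 in TH against 9.89 and 9.87 in TL, and 8.85 and 8.90 in DH against 8.19 and 8.23 in DL. It was highest in TL and lowest in DL, while TH and DH overlapped. Its highland minus lowland difference was -1.01 in Tibetan and 0.67 in Duroc pigs, or -0.52 and 0.24 with normexp and an offset of 50. STT3A (r = 0.9994) and MARCH6 (r = 0.9987) had the patterns most like it.

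GPI showed the largest altitude difference in Tibetan pigs of the 10 counted probes. Its levels were 11.07 and 10.99 in TH against 9.31 and 9.30 in TL, and 11.18 and 11.21 in DH against 10.64 and 10.58 in DL. Both lowland groups lay below both highland groups, with TL more than 1 log2 unit below DL. TH minus TL was 1.73 (SE 0.04, limma adjusted p = 2.3e-06, called), or 3.31-fold, which stood at the 90.9th percentile of the accession-named probes. DH minus DL was 0.59 (SE 0.04, adjusted p = 2.18e-04, not called), or 1.5-fold. The altitude effect was 1.16 (SE 0.03, adjusted p = 5.58e-06, called), and without TL replicate 1 or TL replicate 2 it was 1.16 or 1.15 and no longer called (limma adjusted p = 1.18e-04 and 1.20e-04). Set within a slide, where breed differs as well, TH minus DL was 0.42 and DH minus TL was 1.89, so that the highland array lay above the lowland array on both slides.

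The altitude contrast of GPI was 1.14 larger in Tibetan than in Duroc pigs (SE 0.06, limma adjusted p = 3.64e-05, called). A larger Tibetan contrast was called for 14.9% of all tested and 22% of accession-named probes. TL had the lowest level of the 4 groups, and the interaction cannot be told apart from a difference between the slides or between moved and unmoved pigs. The breed effect of GPI was -0.73 (limma adjusted p = 1.59e-05, called), lower in Tibetan pigs as for 14.6% of all tested and 19.3% of accession-named probes. Its TL minus DL was -1.30 and its TH minus DH -0.16. The patterns most like GPI were those of MSRB1 (r = 0.9999) and PRMT5 (r = 0.9991), and 512 of the 4972 probes had r above 0.95 with it.

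TPI1 was measured by 2 probes that gave the same order of groups, TH, DH, DL and TL from high to low. The brighter probe was at 13.00 and 13.04 in TH against 11.56 and 11.55 in TL, and 12.89 and 12.88 in DH against 12.17 and 12.23 in DL. The dimmer probe was at 12.28 and 12.25 in TH against 11.23 and 11.12 in TL, and 12.14 and 12.23 in DH against 11.45 and 11.53 in DL. Highland arrays were above lowland arrays at both probes, while TH and DH lay close together, with a TH minus DH of 0.14 at the brighter probe (limma adjusted p = 0.0138, not called).

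The altitude difference of TPI1 was called in both breeds at the brighter probe. TH minus TL was 1.47 (SE 0.03, limma adjusted p = 1.54e-06, called), or 2.77-fold, and DH minus DL was 0.69 (SE 0.03, adjusted p = 5.57e-05, called), or 1.61-fold. At the dimmer probe TH minus TL was 1.09 (SE 0.06, adjusted p = 2.82e-05, called) and DH minus DL 0.70 (SE 0.06, adjusted p = 3.39e-04, not called). The interaction was 0.78 (adjusted p = 4.60e-05, called) at the brighter and 0.39 (adjusted p = 0.00751, not called) at the dimmer probe. Within slides, TH minus DL was 0.82 and DH minus TL 1.33 at the brighter probe. LOC100518219 (r = 0.9989) and AURKA (r = 0.9988) had the patterns most like TPI1.

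PGK1 differed little with altitude on the deposited scale, by 0.15 in Tibetan and 0.18 in Duroc pigs. It was at 15.83 and 15.84 in TH against 15.70 and 15.66 in TL, and 15.56 and 15.52 in DH against 15.36 and 15.37 in DL. The groups did not overlap, and Tibetan arrays lay above Duroc arrays. Neither contrast was called (limma adjusted p = 0.00404 for TH minus TL and 0.00373 for DH minus DL), and the difference between these contrasts was -0.02 with a 95% confidence interval of -0.12 to 0.08. The breed effect was 0.31 (SE 0.02, adjusted p = 8.01e-05, called), but with each array scaled to its 75th percentile it turned to -0.06 (limma adjusted p = 0.0479). SCD (r = 0.9965) and CPXM2 (r = 0.9943) were most like PGK1.

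ENO3 had its called altitude difference in Duroc pigs, though the difference between the breeds' contrasts was itself not called. Its levels were 10.52 and 10.51 in TH against 10.18 and 10.21 in TL, and 10.97 and 11.04 in DH against 10.01 and 10.05 in DL. DH was highest, TH next, and both lowland groups lay below. DH minus DL was 0.97 (SE 0.03, limma adjusted p = 3.48e-05, called), or 1.96-fold, at the 95.8th percentile of accession-named probes, and TH minus TL was 0.32 (SE 0.03, adjusted p = 5.43e-04, not called), or 1.25-fold. With normexp and an offset of 50 that Tibetan difference was 0.17, and with 75th percentile scaling 0.20. The altitude effect was 0.65 (SE 0.02, adjusted p = 1.50e-05, called), and the interaction was -0.66 (SE 0.05, adjusted p = 1.45e-04, not called). Within slides TH minus DL was 0.48 and DH minus TL 0.81. Leaving out any single array kept the altitude effect between 0.63 and 0.67, no longer called (limma adjusted p from 1.04e-04 to 2.40e-04).

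Some markers of skeletal muscle, where ENO3 is the main enolase, differed with altitude as well. Of 17 muscle genes listed, 13 had a named probe, with 19 probes in all. For the altitude effect 8 of these probes were called higher at high altitude and 1 lower. Of all tested probes 14% and 12.2% were, and of accession-named probes 26.2% and 9.86%. In Tibetan pigs 7 of the 19 were called higher, where 20.5% of all tested and 33.3% of accession-named probes were, so that the muscle count was near the accession-named share. In Duroc pigs 4 were called higher and 1 lower, where 5.83% and 4.12% of all tested probes were, and 6.43% and 5.94% of accession-named probes. Creatine kinase CKM was at 11.98 and 11.98 in TH against 11.46 and 11.40 in TL, and 12.01 and 12.06 in DH against 10.98 and 11.05 in DL. CKM thus had the same split of highland and lowland arrays as ENO3, with a TH minus TL of 0.55 (limma adjusted p = 6.98e-05) and a DH minus DL of 1.02 (adjusted p = 3.45e-05), both called.

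The fast myosins MYH2 and MYH4 were also called higher at high altitude in both breeds. MYH2 differed by 0.72 for TH minus TL and by 1.27 for DH minus DL (0.83 with normexp and an offset of 50), and MYH4 by 0.77 for TH minus TL (limma adjusted p = 9.40e-05). MYH4 was not well above background on either DL array. Its measured means of 6.33 in DH and 5.32 in DL gave a limma adjusted p of 9.44e-05. As a bound, which that p does not test, DH was at least 1.56-fold above DL. For it the mean of DH was set against that of the lowest signal well above background on each DL array, which exceeded the MYH4 signal there. Other muscle genes did not follow this order in both breeds. TNNT1, TNNC2, TNNI2 and MYL1 were called higher in TH than in TL but were not called for DH minus DL. For that contrast TNNC2 was at -0.26, and MYL1 was well above background in TH alone. MYH7 was at -0.65 for TH minus TL at its brighter probe, not called. The DH minus DL of skeletal actin ACTA1 was -1.70 at its A_72_P127051 probe, called lower, where 1 of the 2 DH arrays was well above background. CA3 was at 7.29 in TH against 7.86 in TL, and in DH at 8.60, at least 7.52-fold above DL by the same bound, since neither DL array was well above background. The limma adjusted p of 1.37e-05 for CA3 belongs to the measured difference, with a DL mean of 3.76, and not to the bound. The summed level of the 19 probes, as log2, was 13.27 on both TH arrays, 12.73 to 12.77 in TL, 13.47 to 13.53 in DH and 12.82 on both DL arrays. Every probe of the list was detected above background in TH, while 1 of the 19 was not in TL, 2 were not in DH and 5 were not in DL. The part of muscle tissue in the ENO3 values was not tested.

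**Figure D3:**
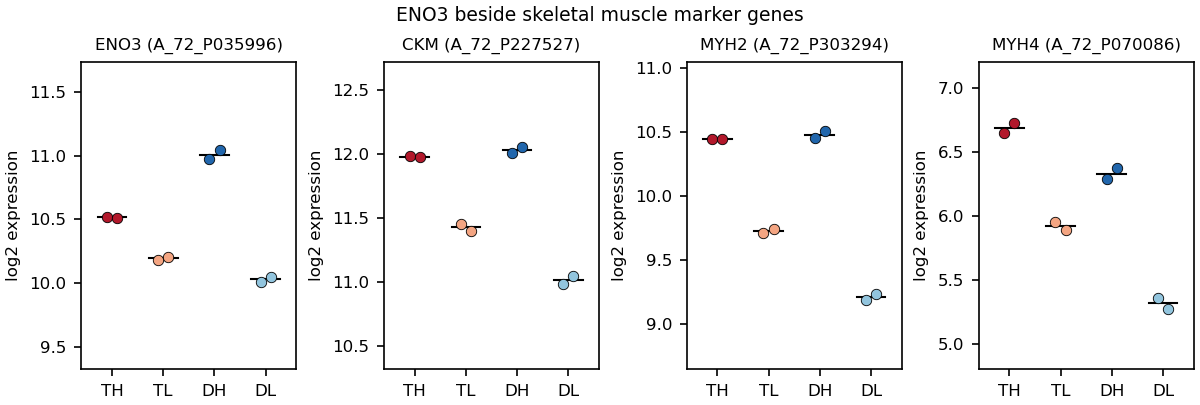
Log2 expression (y axis) of ENO3 and of the muscle genes CKM, MYH2 and MYH4 on each of the 8 arrays, with points for single arrays and a bar for the group mean. Every y axis spans the same length in log2 units. In all 4 panels the highland arrays of each breed lie above its lowland arrays, and DL is the lowest group. MYH4 was not well above background on the DL arrays.

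The lactate dehydrogenase subunits had their lowest mean level in TL at every probe, and no probe of theirs was called for altitude in either breed. LDHA, the subunit that dominates in muscle and other glycolytic tissue, was at 15.54 and 15.56 in TH against 15.11 and 15.13 in TL, and 15.43 and 15.50 in DH against 15.45 and 15.45 in DL. Only TL stood apart, and the DH and DL arrays overlapped. TH minus TL was 0.43 (SE 0.03, limma adjusted p = 1.10e-04, not called), or 1.34-fold, and DH minus DL was 0.02 with a 95% confidence interval of -0.06 to 0.10. The interaction was 0.41 (SE 0.04, adjusted p = 5.99e-04, not called). PAFAH1B1 and F2RL1 (each r = 0.9975) were most like LDHA.

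LDHB, the subunit that dominates in heart, was read by 3 probes. In all, 2 loci of the pig assembly Sscrofa11.1 carry this symbol. The RefSeq transcript that named the 3 probes is assigned to the locus on chromosome 2, positions 12988754 to 12990033. None on the array is assigned to the other locus, on chromosome 5, positions 51810932 to 51831218. The probe sequences were not used here, so which locus a probe reads is uncertain. The brightest probe was at 16.40 and 16.44 in TH against 16.24 and 16.23 in TL, and 16.37 and 16.39 in DH against 16.41 and 16.38 in DL. The group means at all 3 probes ran from TH through DL and DH to TL. TH minus TL was 0.18, 0.33 and 0.40 from the brightest to the dimmest probe (limma adjusted p = 0.00154, 2.85e-04 and 1.50e-04), with no LDHB probe called. DH minus DL was -0.01, -0.19 and -0.13 at the same probes (adjusted p = 0.758, 0.00445 and 0.0194). The sign at the brightest probe was not stable, since with 75th percentile scaling DH minus DL was 0.17 there. DIS3 (r = 0.9942) and DBF4 (r = 0.9918) were most like the brightest LDHB probe.

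LDHA and LDHB, at their brightest probes, had a Pearson r of 0.9857 over the 8 arrays, and GPI had r = 0.9483 with TPI1 and 0.9503 with LDHA. HK2 and PGK1 formed another pair with r = 0.8928, while HK2 had r = -0.1877 with GPI. These correlations describe 8 arrays in 4 groups. For GPI, TPI1, LDHA and LDHB, TL was the lowest group, and for HK2 and PGK1 it was the second highest.

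PDHA1, read through the 2 probes that the study's tables name, gave 2 different patterns. The brighter probe, A_72_P020186, was at 13.94 and 13.88 in TH against 13.87 and 13.87 in TL, and 14.46 and 14.48 in DH against 14.32 and 14.30 in DL. It was higher in all Duroc than in all Tibetan arrays, with a TH minus TL of 0.04 and a DH minus DL of 0.16. The dimmer probe, A_72_P403878, was at 9.25 and 9.26 in TH against 8.11 and 8.09 in TL, and 9.38 and 9.32 in DH against 9.30 and 9.31 in DL. Here TL alone lay low, with a TH minus TL of 1.15 and a DH minus DL of 0.04. PSMD9 (r = 0.9986) and UCP3 (r = 0.9973) had the patterns most like the brighter probe.

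How large the difference between TH and TL was for the bright enzymes depended on the scaling. The deposited values give every array the same distribution, whereas scaling each array to its 75th percentile keeps the compressed bright end of TL. Under the second scaling TH minus TL was 0.90 for PGK1, 1.16 for LDHA and 0.94 for the brightest LDHB probe, in place of 0.15, 0.43 and 0.18. Over the 3131 tested probes with a mean level above 14, the median of TH minus TL was 0.05 on the deposited scale and 0.74 under the other. The values of PGK1, LDHA and LDHB thus lay 0.10, 0.37 and 0.13 above that median on the deposited scale and 0.16, 0.42 and 0.19 above it under the other.

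GPI and the brighter TPI1 probe were called under both scalings, at 1.73 and 1.55 for GPI and 1.47 and 1.73 for TPI1. TH minus TL of HK2 was 0.50 on the deposited scale and 0.19 under the other (limma adjusted p = 0.0935). With 75th percentile scaling 8 of 10 probes were called higher in TH than in TL, where 26.3% of all tested probes were, and 9 of 10 for the altitude effect, where 19.5% were. The shares of accession-named probes called under that scaling were not computed. Called altitude effects over all tested probes were 14% higher and 12.2% lower on the deposited scale, against 19.5% higher of 30.4% called under the other. All 10 enzyme probes were higher in TH than in TL under both scalings. On the deposited scale 55.1% of all tested and 69.2% of accession-named probes were higher in TH. The median TH minus TL of accession-named probes was 0.38 on that scale and 0.62 with 75th percentile scaling.

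**Figure D4:**
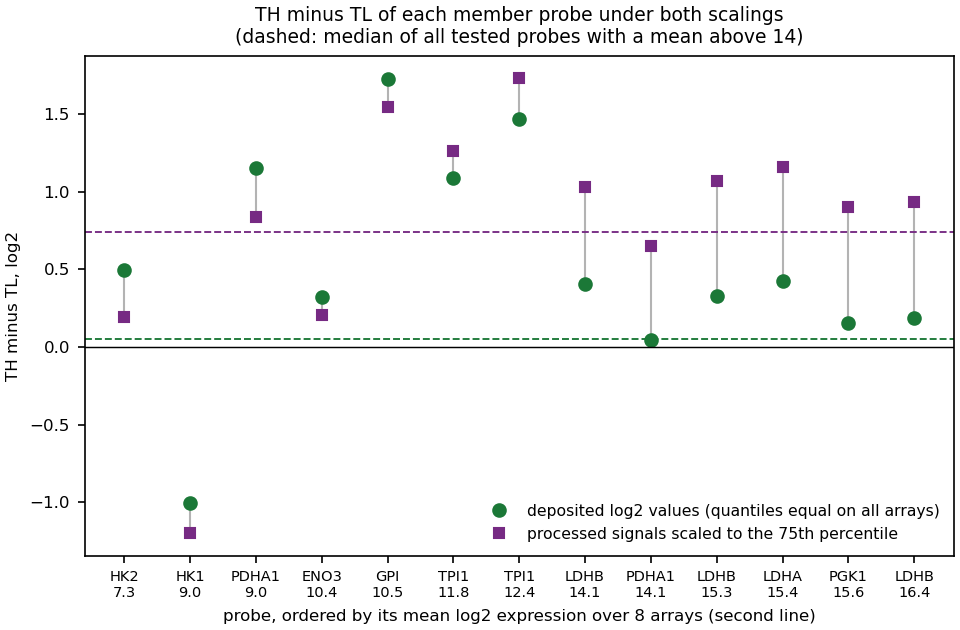
TH minus TL, as a difference of log2 values (y axis), for each of the 13 probes under the deposited values (circles) and under 75th percentile scaling (squares), ordered by mean level from left to right (second line of the x labels). The dashed lines are the medians of tested probes with a mean level above 14, at 0.05 and 0.74, and the bright probes of LDHA, LDHB and PGK1 move up by about as much as that median.

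The other genes of glucose and pyruvate metabolism were sparsely covered. Of 69 genes listed (other glycolytic enzymes, pyruvate use, glucose and lactate transport, the pentose phosphate route and glycogen), 14 had an accession-named probe, and 12 of them, with 18 probes in all, had one that passed the background criterion. For TH minus TL 5 of the 18 were called higher and 3, all of PDK4, lower. Of all tested probes 20.5% and 16.6% were, and of accession-named probes 33.3% and 9.94%. For DH minus DL limma called 0 of 18, with 14 of 18 at an unadjusted p below 0.05 and, at an FDR below 0.05, 6 higher and 7 lower, where 29.8% and 30.4% of all tested probes were. For the altitude effect 4 were called higher and 2, both of PDK4, lower. Of all tested probes 14% and 12.2% were, and of accession-named probes 26.2% and 9.86%.

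The called genes in Tibetan pigs included those that direct pyruvate. Pyruvate carboxylase (PC), which makes oxaloacetate from pyruvate, was at 9.26 and 9.26 in TH against 7.02 and 7.12 in TL, and 9.09 and 9.10 in DH against 8.73 and 8.73 in DL. TL was the low group, and TH minus TL was 2.19 (limma adjusted p = 1.00e-06), or 0.82 with normexp and an offset of 50 (adjusted p = 6.67e-07). PDK1, a kinase that inactivates pyruvate dehydrogenase and a known HIF-1 target, was at 11.46 and 11.47 in TH against 9.58 and 9.54 in TL, and 10.92 and 10.83 in DH against 10.77 and 10.76 in DL. It was highest in TH and lowest in TL, with a TH minus TL of 1.90 (adjusted p = 1.38e-06) and a DH minus DL of 0.11 (adjusted p = 0.0521).

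PDK4, the kinase isoform that rises in fasting, had the opposite sign in Tibetan pigs. Its brightest probe was at 12.23 and 12.23 in TH against 13.97 and 14.01 in TL, and 14.54 and 14.56 in DH against 14.28 and 14.27 in DL. TH was the low group, and TH minus TL was -1.76 (limma adjusted p = 6.56e-07), with -1.99 and -1.06 at the other 2 PDK4 probes, all called. Its breed effect was -1.30 at the brightest probe, called. Of the 18 probes 5 were called lower in Tibetan pigs, where 14.6% of all tested and 19.3% of accession-named probes were. These were the 3 probes of PDK4 and those of PC and TKT, so that 1 gene was counted at several probes. All pigs had been feed-restricted before slaughter, according to the methods.

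Further called probes in Tibetan pigs were those of the pentose phosphate enzymes RPIA (TH minus TL 0.86, or 1.48 with 75th percentile scaling) and TKT (0.59, or 0.91) and of muscle phosphofructokinase PFKM (0.68, limma adjusted p = 3.78e-05). PFKM was at 11.61 and 11.52 in TH against 10.90 and 10.86 in TL, and 11.16 and 11.18 in DH against 11.40 and 11.42 in DL, so that it was highest in TH and lower in DH than in DL. The lactate and pyruvate transporter SLC16A1 differed by 1.35 and 1.46 at its 2 probes for TH minus TL without being called (adjusted p = 1.45e-04 and 0.00247). Fructose-1,6-bisphosphatase FBP1, an enzyme of gluconeogenesis, differed by 1.03 for DH minus DL (adjusted p = 1.49e-04, not called).

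**Figure D5:**
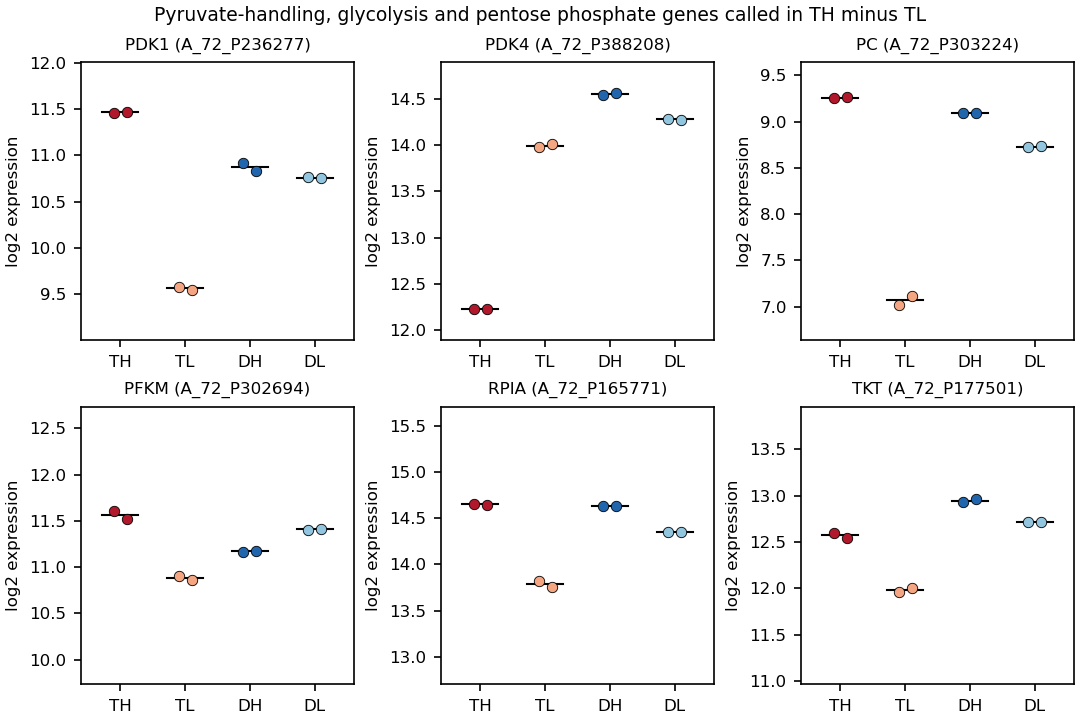
Log2 expression (y axis) on each of the 8 arrays of the 6 other genes of glucose and pyruvate metabolism with a called probe for TH minus TL, with points for single arrays and a bar for the group mean. Every y axis spans the same length in log2 units. TL is the lowest group for PDK1, PC, PFKM, RPIA and TKT, and TH is the lowest group for PDK4.

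The breed effect was called for 3 of the 10 enzyme probes, higher in Tibetan pigs for HK2 and PGK1 and lower for GPI, where 27.4% of all tested probes were called in either direction. With 75th percentile scaling 6 were called, 1 higher and 5 lower, where 33.2% of all tested probes were. The interaction was called for 2 of 10, GPI and the brighter TPI1 probe, both with the larger contrast in Tibetan pigs, where 28.4% of all tested probes were called in either direction. With 75th percentile scaling 8 were called, 7 with a larger and 1, ENO3, with a smaller value in Tibetan pigs, where 32.4% of all tested probes were.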

How the data were processed

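The authors scanned 8 Agilent 1-colour arrays, 1 per pig, and extracted spot signals with Feature Extraction, version 10.7.3.1 in the file headers and 9.1 in the submitters' processing notes. Per the file headers, the scanner files hold each spot's intensity as median signal, background and processed signal. The authors also deposited log2 values, normalized by RMA according to the methods, which have 1 distribution with a median of 7.40 on every array and keep the order of the processed signals. The genome build of the array is not given in the sources used here. These log2 values were the main ones, and the raw intensity served the alternatives.

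Tests ran on 34401 of 43603 probes, those flagged as well above background on 1 array or more. Of 3250 probes with a RefSeq accession, 2683 matched a gene symbol, and 3655 had a symbol in the study's tables. A group-means model over all 8 arrays was fitted with limma 3.58.1 in R 4.3.3, with Benjamini-Hochberg adjustment over all tested probes within each contrast and a call at an FDR below 0.0001, and the scripts were tested on simulated data. Alternatives changed scaling, background, filter, threshold, variance model, slide, pairing and arrays. All 10 enzymes are named, as are other pathway genes where called for altitude. The 7 enzymes with an accession-named probe were led by the brightest such probe, and HK1 and PDHA1 by their brightest probe. The members and lists were chosen with earlier results of these data known. The number of arrays, 2 per group, limits the precision, and p-values rest on the spread between the 2 arrays of each group. At 41 probes with 5 spots each, the median SD of the same spot between the arrays of a group was 0.038 log2. Between single spots within an array it was 0.053. How much of the spread between arrays came from the pigs was not tested. Replicate numbers paired no samples. The genes most like ENO3 in pattern are not reported here. No probe, promoter or protein sequence was used here.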

Additional observations from a re-analysis of the deposited data

Results flagged for a closer look

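The altitude contrast differed between the breeds (a test of the difference itself, called at an FDR below 0.0001) for 2 of 10 enzyme probes and 6 of 18 probes of other pathway genes. Of all tested probes, 28.4% were called for the interaction. TH minus TL less DH minus DL was 1.14 for GPI, 0.78 for the brighter TPI1 probe, 0.92 for PFKM, 1.79 for PDK1 and 1.83 for PC, and for PDK4 it was -1.68, -1.28 and -2.03 at its 3 probes. Each value cannot be told apart from a difference between the slides, 1 of which held TH and DL and the other DH and TL. Nor can it be told apart from a difference between unmoved pigs (TH and DL) and moved pigs (DH and TL). For GPI, TPI1, PDK1 and PC the lowest group was TL, which also stood apart over all probes, and for PDK4 it was TH. The enzyme interaction calls were lost in the fits that left out 1 array, which leave 1 array in a group. Many interaction calls over all tested probes were lost there too.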

How the results depend on the processing

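The limits are 2 pigs per group, a threshold that few arrays can pass, and TL arrays with a compressed bright end. Counts below are of the 10 accession-named enzyme probes, 3 for TH minus TL, 2 for DH minus DL, 4 for the altitude effect, 2 for the interaction and 3 for the breed effect as reported. The cause of a change was not tested unless the setting itself gives it.

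With 75th percentile scaling the counts were 8 for TH minus TL, 9 for altitude, 8 for the interaction and 6 for breed, where 42.1%, 30.4%, 32.4% and 33.2% of all tested probes were called. With normexp on the median signal and an offset of 0, they were 0 for DH minus DL (6 at an unadjusted p below 0.05) and 1 for the interaction (3.1% and 21.1% of all tested probes), and with local background and an offset of 50, 5 for TH minus TL (37.4% of all tested probes). Among probes well above background on all 8 arrays (fewer probes tested), they were 6 for TH minus TL, 4 for DH minus DL and 5 for the interaction, where 58.9%, 27.5% and 49.1% of all probes were called. At an FDR below 0.01 they were 10, 6, 8, 9 and 6 for TH minus TL, DH minus DL, altitude, interaction and breed (67.6%, 47%, 60.1%, 63.7% and 61.5% of all tested probes), and at an FDR below 0.05 they were 10, 7, 10, 9 and 8 (76.1%, 60.2%, 70.9%, 73.7% and 71.6%). Without moderation of the variances they were 0 for DH minus DL (7 at an unadjusted p below 0.05), 0 for the interaction (9) and 1 for breed (2.7%, 16.5% and 16.4% of all tested probes), and with an intensity trend in limma 7, 4 and 6 for TH minus TL, DH minus DL and the interaction (46.7%, 22.8% and 39.7%). With only the arrays of the 2 groups compared, limma called 0 for TH minus TL (10 at an unadjusted p below 0.05) and 0 for DH minus DL (7). Of all tested probes 0% were called for either contrast there. With both TL arrays left out, a setting chosen after seeing the data, DH minus DL had 0 called (7 at an unadjusted p below 0.05), as had 0% of all tested probes. Leaving out each array in turn leaves 1 array in a group, and calls were then lost for every contrast, among the enzyme probes as among all tested probes.

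Same-numbered arrays deviated together with r from -0.0434 to 0.0914 over tested probes, so the numbers did not pair the samples. With the replicate block the counts were 2 for TH minus TL and 2 for altitude. They were 0 for DH minus DL (7 at an unadjusted p below 0.05 by limma), 0 for the interaction (9) and 0 for breed (8). Of all tested probes 20.8%, 8.4%, 0% and 11.9% were called for TH minus TL, altitude, DH minus DL and the interaction. For breed, 3697 of the 34401 tested probes were called.

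Signs turned for 3 genes. The difference of the brightest LDHB probe for DH minus DL, -0.01 as reported, was 0.1711 with 75th percentile scaling and ran from -0.0238 to 0.0028 when single arrays were left out, the latter without DL replicate 1. LDHA for DH minus DL, 0.02 as reported, was -0.0627 with normexp and an offset of 0, -0.0622 with local background and an offset of 50, and ran from -0.0192 (without DH replicate 2) to 0.0502 when single arrays were left out. The breed effect of PGK1 was -0.0567 with 75th percentile scaling. Of 710 values of 35 single-gene results under alternatives, 505 kept their direction and side of the threshold, 156 lost the call, 24 gained one, 19 moved beyond the replicate spread and 6 turned sign.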
